A study of Mus musculus with 12 samples.

Results

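The 41 genes described here encode the enzymes that add and remove acetyl groups on histones, the enzymes that methylate and demethylate DNA, and proteins that read these marks. They were listed by symbol and matched to the Ensembl identifiers of the deposited count files, and all 41 were among the 55421 genes listed. The list holds 4 class I, 4 class IIa and 3 class IIb or class IV histone deacetylases, 7 sirtuins, 10 acetyltransferases, 2 acetyl-lysine readers, 3 DNA methyltransferases, 3 TET dioxygenases and 5 genes for methyl-CpG binding proteins or UHRF1. All 41 had more than 20 reads over the 12 libraries, the minimum for testing, which 22592 genes met.

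The libraries were made from poly(A) RNA of the hippocampus of 12 mice, 3 in each of 4 groups. Mice were wild type (WT) or carried a germline knockout of Fmr1 (KO), the fragile X syndrome gene. Per the methods all mice had a C57B/L6 background, and the knockout animals were Fmr1 -/y males. Whether these mice carried the Nestin-GFP transgene used elsewhere in the study is not stated in the labels or methods. They were injected intraperitoneally at 2 months of age with vehicle (WT-Veh, KO-Veh) or with Nutlin-3 (WT-Nut3, KO-Nut3), a small molecule that keeps the ubiquitin ligase MDM2 from binding p53, and the tissue was taken at 6 months, so that every group was measured long after the injections. Between 17150820 and 20040482 reads per library were assigned to genes. The knockout is not limited to a cell type, and the whole hippocampus was used, so that fewer cells of a type and less RNA per cell cannot be told apart.

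Acetylation of histone tails by acetyltransferases such as p300, CBP and GCN5 (KAT2A) loosens chromatin and is read by bromodomain proteins, while histone deacetylases, most of them acting within corepressor complexes, take the mark off. DNA methyltransferases place methyl groups on cytosines of CG dinucleotides, TET dioxygenases oxidise them toward removal, and methyl-CpG binding proteins connect methylated DNA to deacetylase complexes. In neurons of the hippocampus these enzymes are studied for their part in memory and in adult neurogenesis. The question put to them here follows from the study's protein assays of HDAC1, p300 and acetylated histone H3 in neural stem cells. For acetylated H3 the study also reported a lasting decrease after Nutlin-3 in hippocampus and cortex of Fmr1 KO mice. The question was whether the transcripts of these enzymes differed with genotype or with the early Nutlin-3 treatment.

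Library identity was checked first. Fmr1 itself had 34.2 ± 2.72 counts per 1000000 assigned reads (CPM) in KO-Veh, 31.6 ± 3.71 in KO-Nut3, 77.5 ± 2.11 in WT-Veh and 75.8 ± 2.26 in WT-Nut3 (mean ± SD, n = 3 each), with every KO library below every WT library. Its log2 fold change in KO-Veh against WT-Veh was -1.18 (edgeR, adjusted P = 1.76e-06). Neuronal markers were abundant in all 12 libraries, with a summed level of Snap25, Rbfox3 and Syt1 between 2989 and 3533 CPM. Other markers set some libraries apart. The summed level of 12 genes of the choroid plexus epithelium, the tissue that secretes cerebrospinal fluid, was 3618 CPM in KO-Nut3 RH6, 389.8 in KO-Nut3 RH8, 5179 in KO-Nut3 RH13 and 4838 in WT-Nut3 RH9, and between 33.4 and 58.9 in the other 8 libraries. All 12 of these genes were detected, and their most abundant one, Ttr, reached 3091, 313.5, 4520 and 4215 CPM in those 4 libraries and at most 18.2 CPM elsewhere. KO-Nut3 RH6 also had the highest sum of 4 thalamic markers, 197.5 CPM against 37.6 to 61.7 in the other libraries, and the lowest sum of 4 CA pyramidal neuron markers, 365.6 CPM against 499 to 592.6. The 9 genes of meningeal and stromal fibroblasts summed to 1909 CPM in KO-Nut3 RH8, 1193 in WT-Veh RH5 and 926.9 in KO-Nut3 RH6, and to 198.3 to 434.2 CPM elsewhere.

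**Figure D1:**
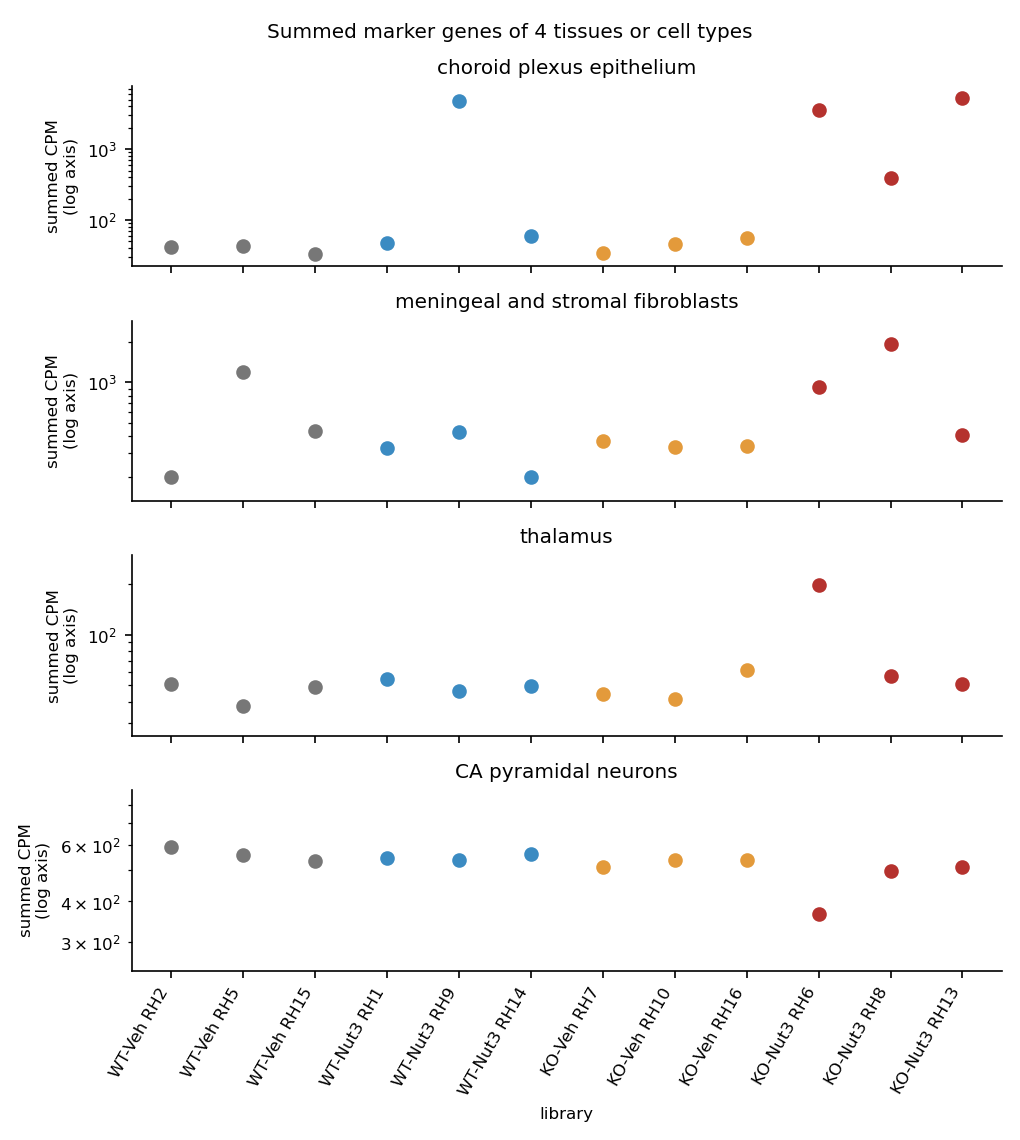
Summed CPM (log axis) of marker genes of the choroid plexus epithelium, meningeal and stromal fibroblasts, thalamus and CA pyramidal neurons in each of the 12 libraries, coloured by group. The choroid plexus sum stands at 3618 to 5179 CPM in 3 libraries and at 389.8 CPM in KO-Nut3 RH8, and the thalamic sum is highest and the CA pyramidal sum lowest in KO-Nut3 RH6.

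The start regions of 4 of the genes are shown because 3 of them, Kat2a, Kat2b and Hdac4, had the smallest P-values of the 41 genes in KO-Nut3 against KO-Veh, and the fourth, Ep300, encodes a protein the study assayed. RefSeq windows of the GRCm38.p6 build, from 250 bases before to 50 bases after a start site, were at hand for 35 of the 41 genes. Each is printed 5′ to 3′ on the gene's own strand, in lower case, with GC boxes in capitals. A GC box is the word GGGCGG or, on the other strand, CCGCCC, counted wherever it occurred. The windows lie at chr11:100712418-100712717 on the minus strand for Kat2a, chr17:53566721-53567020 on the plus strand for Kat2b, chr1:92180292-92180591 on the minus strand for Hdac4 and chr15:81585964-81586263 on the plus strand for Ep300. The start site of the Hdac4 window is 15358 bases and that of the Ep300 window 863 bases from the outermost annotated start of the gene, so that both windows lie inside the annotated gene.
Kat2a: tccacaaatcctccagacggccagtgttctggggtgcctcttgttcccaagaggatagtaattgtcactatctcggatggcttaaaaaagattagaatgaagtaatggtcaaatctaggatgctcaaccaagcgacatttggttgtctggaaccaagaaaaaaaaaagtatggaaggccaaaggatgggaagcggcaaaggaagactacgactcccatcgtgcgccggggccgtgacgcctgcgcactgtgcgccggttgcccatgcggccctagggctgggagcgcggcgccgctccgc
Kat2b: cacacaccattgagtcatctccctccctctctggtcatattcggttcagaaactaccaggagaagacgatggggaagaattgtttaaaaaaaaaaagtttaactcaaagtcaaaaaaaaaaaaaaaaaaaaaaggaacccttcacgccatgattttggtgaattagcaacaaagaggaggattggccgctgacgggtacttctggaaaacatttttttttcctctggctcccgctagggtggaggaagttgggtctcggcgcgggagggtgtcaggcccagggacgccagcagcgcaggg
Hdac4: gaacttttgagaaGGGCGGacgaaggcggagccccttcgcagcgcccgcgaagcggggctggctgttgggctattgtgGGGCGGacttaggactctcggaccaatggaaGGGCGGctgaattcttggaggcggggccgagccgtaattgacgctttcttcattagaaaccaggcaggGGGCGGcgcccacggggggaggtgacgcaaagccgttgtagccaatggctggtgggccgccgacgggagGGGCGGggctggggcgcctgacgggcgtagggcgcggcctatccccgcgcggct
Ep300: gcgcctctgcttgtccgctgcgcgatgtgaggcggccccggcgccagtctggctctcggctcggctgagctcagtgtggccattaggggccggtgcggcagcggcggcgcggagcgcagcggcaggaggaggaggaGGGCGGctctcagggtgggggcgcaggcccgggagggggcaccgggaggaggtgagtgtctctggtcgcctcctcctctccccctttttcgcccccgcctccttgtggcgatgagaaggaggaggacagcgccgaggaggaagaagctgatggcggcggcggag

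The windows of the paralogs Kat2a and Kat2b differed in their count of CG dinucleotides. The Kat2a window held 19 CG dinucleotides and the Kat2b window 11, and neither held a GC box, whereas that of Hdac4 held 32 CG dinucleotides and 5 GC boxes and that of Ep300 held 30 and 1. Over the 35 genes with a window, the median was 20 CG dinucleotides against 7 over all 32851 windows of the same length, and 23 of the 35 windows (65.7%) held a GC box against 35.7% of all windows. The 35 windows are 1 per gene, the nearest to the annotated gene start. The set of all windows was not reduced in this way or limited to expressed genes, so the sets are not alike. Among the 35 windows the lowest count, 0 CG dinucleotides, was in that of Hdac9 and the highest, 57, in that of Tet2. The cyclic AMP response element TGACGTCA, bound by CREB, the partner for which CBP is named, was in 0 of the 35 windows and in 1.79% of all windows.

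The genes were expressed over a wide range of levels. On the scale of CPM per kilobase of annotated exon, which allows levels of different genes to be compared, Mbd3, which encodes a subunit of the NuRD deacetylase complex, stood highest with 50.2 ± 2.57 (mean ± SD over the 12 libraries) and a range of 46.3 to 54.4. Brd2, a bromodomain reader, followed with a level of 25.6 ± 1.33 and Sirt2, a deacetylase abundant in myelinating cells, with 23.4 ± 1.04. The ranges of Brd2, 23.1 to 27.4, and of Sirt2, 22.1 to 25.2, overlapped, and that of Mbd3 lay above both. Hdac11, the class IV deacetylase, came next with 23.1 ± 1.83, within the spread of Sirt2. With the strand columns summed, Hdac11 stood second with a level of 50.0, next to Mbd3 with 50.2. Brd2 and Sirt2 followed with 28.5 and 23.7. As reads came about evenly from both strands, this sum counts reads shared by genes on opposite strands for both genes. It is an upper limit for such genes, and the place of Hdac11 is uncertain. At the other end, Tet1, a dioxygenase best known from stem cells, had a level of 1.15 ± 0.136. Uhrf1, which brings DNMT1 to newly replicated DNA, had 0.272 ± 0.0698 and Dnmt3b, a de novo methyltransferase of the embryo, 0.272 ± 0.0967, and these lowest levels did not differ beyond their spread. Uhrf1 was counted with 15 to 31 reads and Dnmt3b with 11 to 44 reads per library, so their values rest on few reads.

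**Figure D2:**
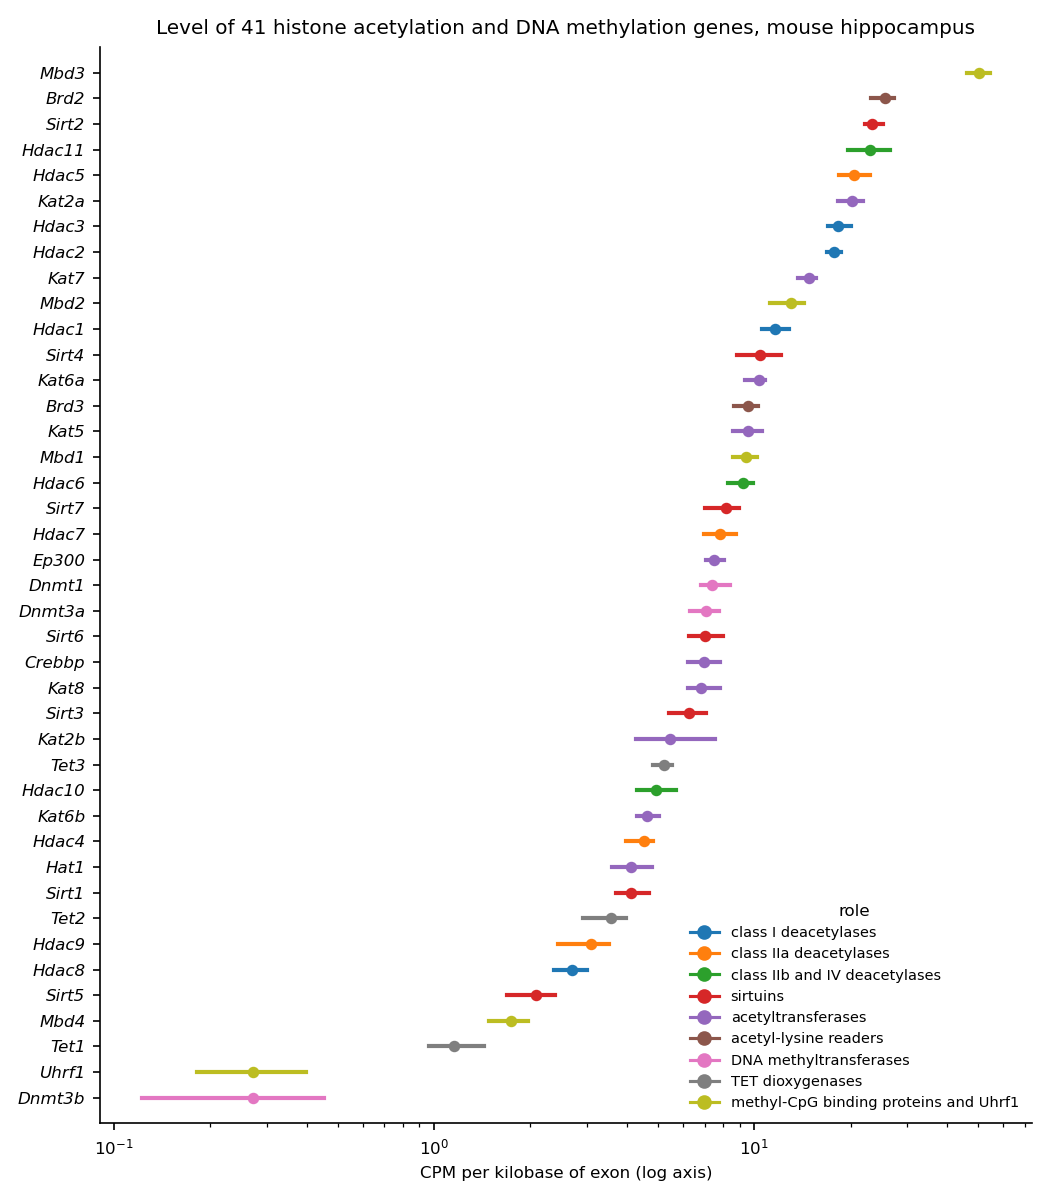
Level of each of the 41 genes in CPM per kilobase of exon (log axis), the point giving the mean and the line the lowest to highest of the 12 libraries, coloured by role. Levels run from 0.272 for Dnmt3b and Uhrf1 to 50.2 for Mbd3, and Dnmt3b, Uhrf1 and Kat2b have the longest lines.

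Within families the order of levels was clear in places. Among the class I deacetylases, of which HDAC1 and HDAC2 act in the Sin3, NuRD and CoREST complexes and HDAC3 in the NCoR complex, Hdac3 had a level of 18.2 and Hdac2 of 17.7 CPM per kilobase, a difference within their spread, followed by Hdac1 with 11.6 and Hdac8 with 2.71. Hdac5 led the class IIa enzymes, which shuttle between nucleus and cytoplasm, with a level of 20.5. Hdac6, the cytoplasmic tubulin deacetylase, had 9.26. The acetyltransferases were led by Kat2a with 20.3 and Kat7 with 14.9, ahead of Ep300 with 7.50, Crebbp with 6.99 and Kat2b with 5.46. The maintenance methyltransferase Dnmt1 had a level of 7.36 and the de novo enzyme Dnmt3a of 7.09, again within their spread, and the dioxygenases stood in the order Tet3 with 5.24, Tet2 with 3.58 and Tet1. Reads were counted without regard to strand, and reads shared by overlapping genes were set aside, which can lower a level. With the strand columns summed, the level of Hdac11 was 50.0 in place of 23.1 and that of Sirt3 8.93 in place of 6.28. Kat5 had 13.5 in place of 9.55, Brd2 28.5 in place of 25.6 and Mbd4 2.13 in place of 1.74. The sum counts shared reads for both overlapping genes, as strand cannot separate them here, so these values are upper limits. The deposited counts of Hdac11 are 46.1% of its strand sum, and Gm14573 and Gm44002 overlap it on the other strand. For these 5 genes the level is therefore uncertain, and for the other 36 the strand sum differed by less than 3%.

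Variation between animals was small for most of the genes. The ratio of the highest to the lowest of the 12 libraries was 1.11 for Hdac2, and it was highest for Kat2b with 1.76, Uhrf1 with 2.20 and Dnmt3b with 3.69. For the other 38 genes it was at most 1.48. The median over the 41 genes of the SD within groups was 0.103 on the log2 scale. It was 0.230 for all 22592 genes tested and 0.141 for the 13924 genes in the same range of mean level. That range reaches down to the low levels of Uhrf1 and Dnmt3b, so the 13924 genes are not matched in level to the 41. Summed by role, the 10 acetyltransferases came to between 88.4 and 92.9 CPM per kilobase, a ratio of 1.05, the 4 class I deacetylases to between 48.5 and 52.9, and the 7 sirtuins to between 59.6 and 65.1. The summed CPM of the acetyltransferases was 0.604 to 0.650 times that of all deacetylases and sirtuins together, with the lowest ratio in WT-Nut3 RH1 and the highest in WT-Nut3 RH9, both of the same group.

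**Figure D3:**
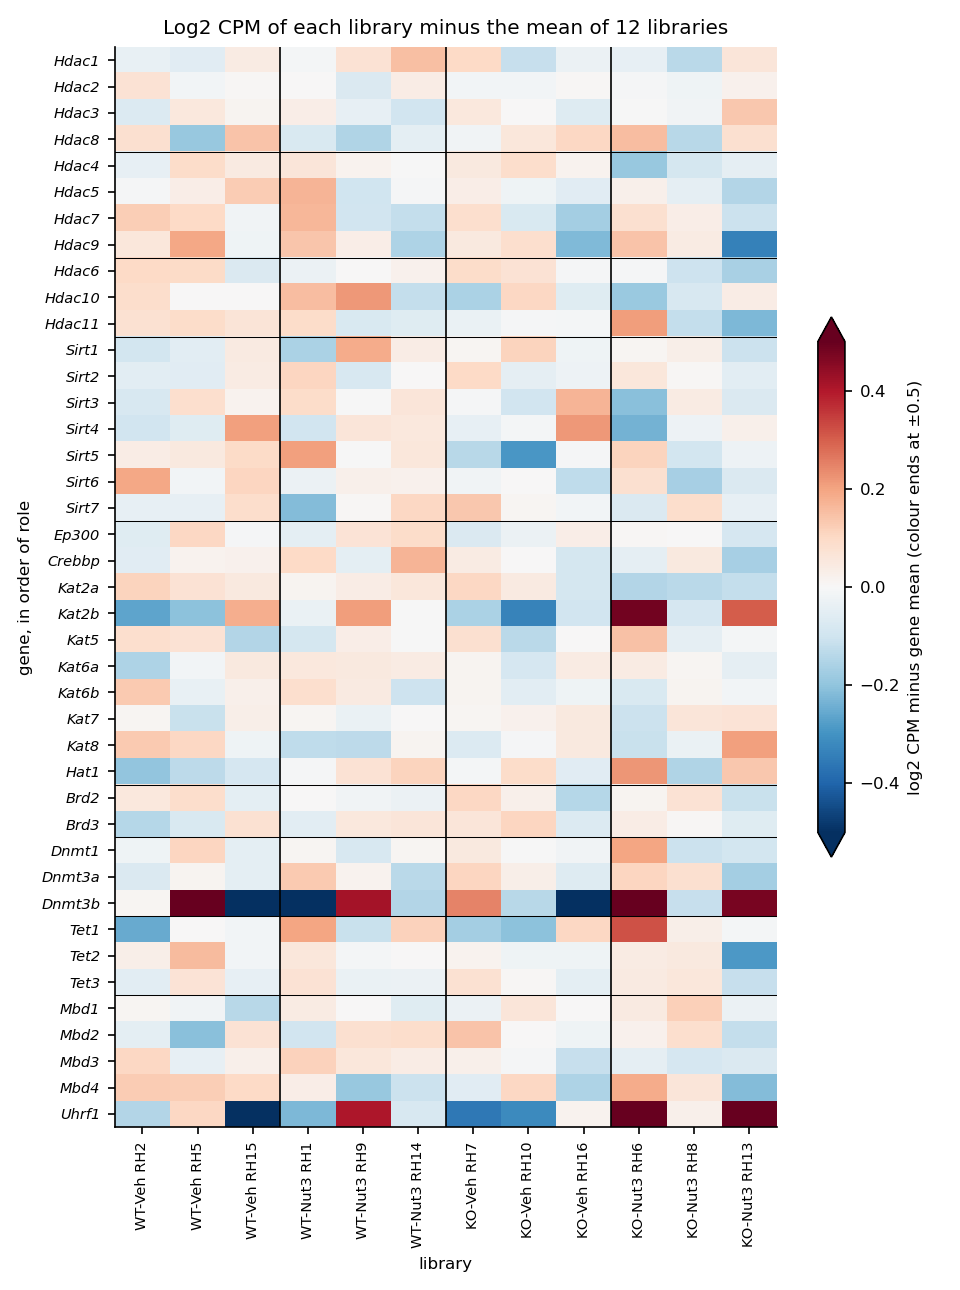
Log2 CPM of each gene in each library minus that gene's mean over the 12 libraries, with libraries in columns by group and genes in rows by role, and colour ending at 0.5 in either direction. Most cells are pale, and the strongest colours belong to Dnmt3b, Uhrf1 and Kat2b.

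Hdac1 and Ep300 did not differ beyond the spread between animals in any comparison. Hdac1, which encodes a catalytic subunit of the Sin3 and NuRD complexes, was at 42.7, 36.8 and 39.1 CPM in KO-Veh, 38.8, 36.3 and 41.6 in KO-Nut3, 38.9, 38.4 and 41.05 in WT-Veh and 39.7, 41.9 and 44.2 in WT-Nut3. All groups overlapped. Its log2 fold change was 0.00 with a 95% interval of -0.15 to 0.16 in KO-Veh against WT-Veh, and -0.03 with an interval of -0.22 to 0.16 in KO-Nut3 against KO-Veh. The latter value was -0.12 without the 3 libraries richest in choroid plexus RNA and -0.09 with a choroid plexus score in the model, short of the threshold in both. Ep300, which encodes the acetyltransferase p300, was at 101.6, 104.8 and 109.5 CPM in KO-Veh, 107.5, 107.0 and 100.8 in KO-Nut3, 102.5, 114.8 and 106.4 in WT-Veh and 103.3, 112.1 and 113.8 in WT-Nut3. Here too all groups overlapped, and the log2 fold change was -0.04 (interval -0.16 to 0.09) for KO-Veh against WT-Veh and -0.01 (interval -0.14 to 0.13) for KO-Nut3 against KO-Veh. The interaction of genotype and Nutlin-3, the difference between the Nutlin-3 effects in KO and WT, was -0.11 for Hdac1 (interval -0.34 to 0.12) and -0.03 for Ep300 (interval -0.21 to 0.15) on the log2 scale. These intervals leave room for changes of the width they span, and they concern transcripts of the whole tissue, not protein and not neural stem cells alone.

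**Figure D4:**
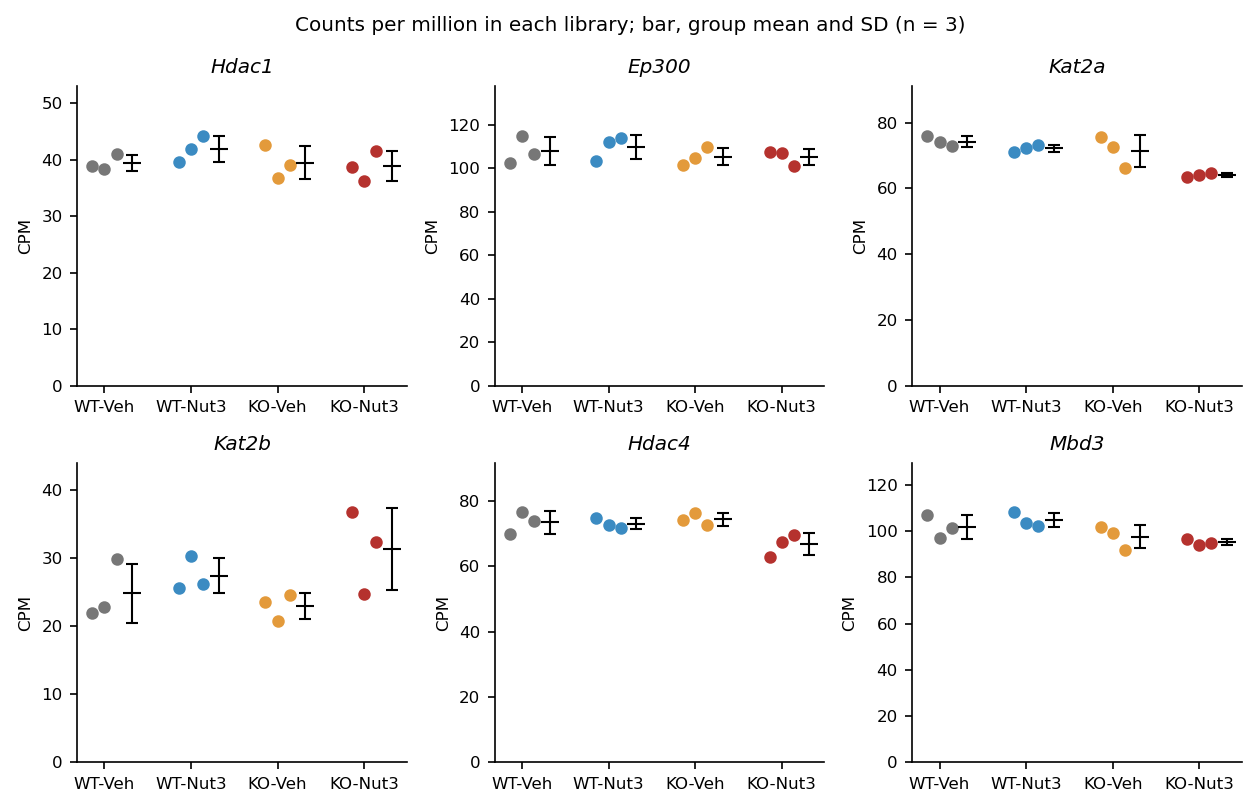
CPM of Hdac1, Ep300, Kat2a, Kat2b, Hdac4 and Mbd3 in each library by group, with axes from 0 and the black bar giving the group mean and SD (n = 3). Groups overlap for Hdac1 and Ep300, the KO-Nut3 libraries are the 3 lowest of 12 for Kat2a and Hdac4, and Kat2b is highest in KO-Nut3 RH6 and RH13.

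Nutlin-3 against vehicle in Fmr1 KO mice (KO-Nut3 against KO-Veh) changed none of the 41 genes at an adjusted P under 0.05 by edgeR's quasi-likelihood test, nor by DESeq2. Over all genes the edgeR test called 45, which is 0.199%. At an unadjusted P under 0.05 it counted 3 of the 41 (7.32%), Kat2b, Hdac4 and Kat2a, against 7.6% of all genes. The median log2 fold change was -0.01 over the 41 genes and 0.00 over all genes, with 14 genes above 0 and 27 below. For 38 of the 41 the 95% interval stayed within 0.5 of 0 on the log2 scale, the exceptions being Kat2b, Dnmt3b and Uhrf1.

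Kat2b, which encodes the acetyltransferase PCAF of the SAGA and ATAC complexes, was at 36.7, 24.7 and 32.4 CPM in KO-Nut3 (RH6, RH8 and RH13) and at 23.5, 20.8 and 24.6 CPM in KO-Veh. The groups did not overlap, though RH8 was close to the highest KO-Veh library. WT-Veh was at 21.9, 22.7 and 29.8 CPM and WT-Nut3 at 25.6, 30.3 and 26.2. Against KO-Veh its log2 fold change was 0.44 ± 0.14 (SE; edgeR, adjusted P = 0.395). Without KO-Nut3 RH8 it was 0.58 and passed the threshold (edgeR, adjusted P = 0.0392). It also passed with every gene of at least 1 count tested, at 0.45 (edgeR, adjusted P = 0.0298). Leaving out any other single library gave 0.31 (KO-Nut3 RH6) to 0.49 (KO-Veh RH16), short of the threshold. The 3 libraries with the highest Kat2b level were those with the most choroid plexus RNA. WT-Veh RH15, which had the lowest choroid plexus sum (33.4 CPM), came close behind them, with 29.8 CPM of Kat2b beside 30.3 in WT-Nut3 RH9. KO-Nut3 RH6, KO-Nut3 RH13 and WT-Nut3 RH9 were the 3 highest of the 12 libraries for 2 of the 41 genes, Kat2b and Uhrf1, and for 2.98% of all genes tested, and the 3 lowest for 0 of the 41 and 0.66% of all genes. A choroid plexus score (the mean log2 level of its markers) was added to the fit of all 12 libraries. The log2 fold change of Kat2b was then 0.11 (edgeR, adjusted P = 0.999998). The score was 2.69 to 5.96 in KO-Nut3 and -0.06 to 0.76 in KO-Veh. As these do not overlap, the fit cannot tell Nutlin-3 and choroid plexus RNA apart in this comparison. With KO-Nut3 RH6, KO-Nut3 RH13 and WT-Nut3 RH9 left out, KO-Nut3 RH8 stood alone for its group and the value was 0.11. Because they were the 3 highest for Kat2b, leaving them out lowered the value by that choice and decides nothing.

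Kat2a, the paralog that encodes GCN5, had a log2 fold change below 0 in the same comparison. It was at 63.6, 64.1 and 64.9 CPM in KO-Nut3, 75.5, 72.6 and 66.1 in KO-Veh, 71.1, 72.2 and 73.2 in WT-Nut3 and 76.0, 74.0 and 72.8 in WT-Veh. The KO-Nut3 libraries were thus the 3 lowest of 12, with KO-Veh RH16 next above them. The log2 fold change against KO-Veh was -0.16 ± 0.07 (SE; edgeR, adjusted P = 0.631), an estimated level 0.897 times that of KO-Veh. With the choroid plexus score added it was -0.14, and -0.15 with the 3 choroid plexus libraries left out, in both cases short of the threshold (edgeR, adjusted P = 0.999998 and 0.999). Hdac4, a class IIa deacetylase of neurons, showed the same order. It was at 62.9, 67.5 and 69.5 CPM in KO-Nut3 and at 74.1, 76.2 and 72.5 in KO-Veh, with a log2 fold change of -0.16 ± 0.06 (SE; edgeR, adjusted P = 0.588). WT-Veh was at 69.7, 76.4 and 74.0 CPM and WT-Nut3 at 74.8, 72.7 and 71.7, all above the KO-Nut3 libraries, though WT-Veh RH2 was nearly level with KO-Nut3 RH13. The lowest Hdac4 value was that of KO-Nut3 RH6, the library with the highest thalamic and lowest CA pyramidal marker sum, and without it the log2 fold change was -0.12. In KO-Nut3 against KO-Veh, markers of several cell types leaned to one side. All 12 choroid plexus markers had a log2 fold change above 0, and 4 passed the adjusted threshold by edgeR. Of the 9 fibroblast markers 8 were above 0, and 1, Igf2, passed. Those of ependyma (5 of 5), thalamus (4 of 4) and endothelium (3 of 4) were mostly above 0, and none passed. All 3 neuronal, 4 CA pyramidal and 4 dentate granule neuron markers had a log2 fold change below 0 in KO-Nut3 against KO-Veh, with medians of -0.12, -0.22 and -0.13, and all 5 oligodendrocyte markers had one above 0, with a median of 0.21, though 0 of these 16 genes passed the adjusted threshold by edgeR. The CA pyramidal marker sum was 365.6, 499 and 510.9 CPM in KO-Nut3 and 514 to 540.1 in KO-Veh, without overlap, and the oligodendrocyte sum was 5750, 4894 and 4861 CPM against 4124 to 4750. The part of thalamic tissue and of these cell types, the choroid plexus epithelium included, in the values of Kat2a and Hdac4 was not tested. The choroid plexus scores of KO-Nut3 and KO-Veh did not overlap, and leaving out libraries kept only KO-Nut3 RH8 in its group. An order with KO-Nut3 as the 3 lowest of 12 was found for 2 of the 41 genes, Hdac4 and Kat2a, and for 0.845% of all genes, and an order with KO-Nut3 as the 3 highest for 0 of the 41 and 0.881% of all genes.

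By groups alone, KO-Nut3 and KO-Veh did not overlap for 5 of the 41 genes, Kat2b and Uhrf1 higher and Kat2a, Hdac4 and Hdac6 lower, beside 13.3% of all genes. Uhrf1 was at 1.61, 1.15 and 1.70 CPM in KO-Nut3 and 0.878, 0.902 and 1.14 CPM in KO-Veh, so that the lowest treated and the highest vehicle library nearly met, with a log2 fold change of 0.61 and an interval of -0.07 to 1.29. Hdac6 was at 53.6, 50.0 and 48.1 CPM in KO-Nut3 and 57.2, 56.5 and 53.6 in KO-Veh, where the nearest libraries, KO-Nut3 RH6 with 53.57 and KO-Veh RH16 with 53.61, were all but equal. By role, 6 of the 7 sirtuins, all 3 class IIb and IV deacetylases and 3 of the 4 class IIa enzymes had a log2 fold change below 0, with medians of -0.05, -0.04 and -0.03, and the acetyltransferases were split 5 to 5. None of these passed the test. The maintenance and de novo methyltransferases Dnmt1 and Dnmt3a had log2 fold changes of -0.01 (interval -0.21 to 0.19) and -0.02 (interval -0.20 to 0.17).

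The knockout under vehicle (KO-Veh against WT-Veh) changed 0 of the 41 genes at an adjusted P under 0.05 by edgeR and by DESeq2, against 4 of all genes by edgeR (0.0177%). At an unadjusted P under 0.05 it again counted 0 of the 41, against 7.2% of all genes. The median log2 fold change over the 41 genes was -0.01, the intervals of 39 stayed within 0.5 of 0, and the exceptions were Dnmt3b and Uhrf1, the least expressed. The smallest P belonged to Hdac11, at 86.5, 88.1 and 87.8 CPM in KO-Veh and 93.3, 94.2 and 92.6 in WT-Veh, with a log2 fold change of -0.09 ± 0.05 (SE; edgeR, adjusted P = 0.745). Its counts leave out the reads that overlapping genes share. Sirt5, a mitochondrial desuccinylase and demalonylase, was at 11.5, 10.3 and 12.6 CPM against 12.96, 13.1 and 13.5, a log2 fold change of -0.20 ± 0.12 (SE; edgeR, adjusted P = 0.764). Groups did not overlap for 3 of the 41 genes, Hdac11 and Sirt5 lower and Hat1 higher, beside 12.4% of all genes.

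**Figure D5:**
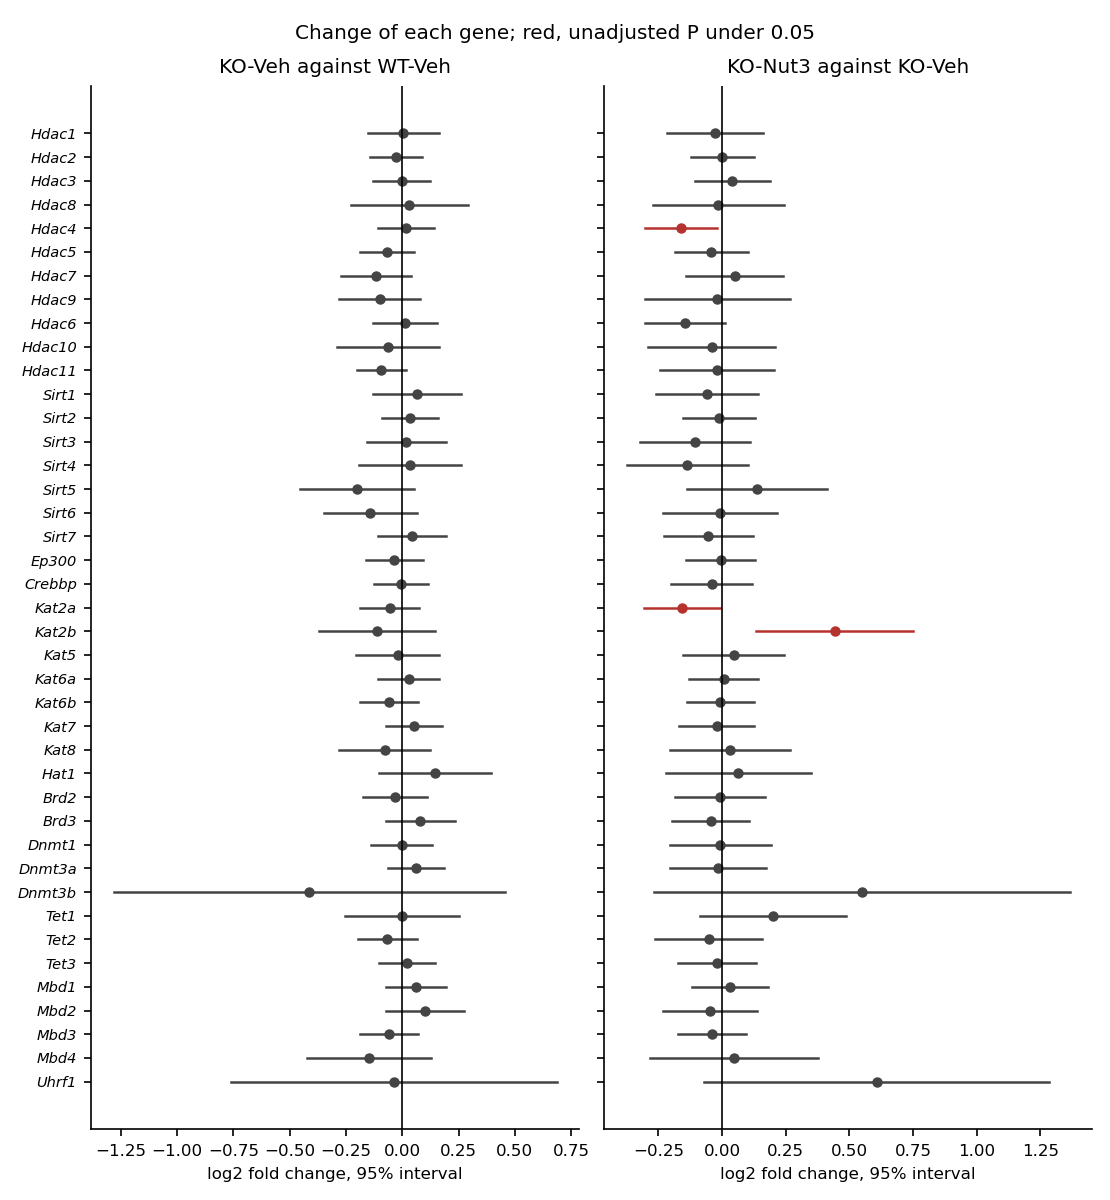
Log2 fold change of each of the 41 genes with its 95% interval in KO-Veh against WT-Veh and in KO-Nut3 against KO-Veh, with genes in order of role and red marking an unadjusted P under 0.05. On the KO-Nut3 side Kat2b, Hdac4 and Kat2a are red, 0 genes are red on the other side, and Dnmt3b and Uhrf1 have the widest intervals.

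Nutlin-3 in wild-type mice (WT-Nut3 against WT-Veh) left 0 of the 41 genes called at either threshold by edgeR, where 0% of all genes passed the adjusted and 3.17% the unadjusted threshold, and 0 by DESeq2 after adjustment. Hat1, the acetyltransferase of newly made histone H4, was at 11.9, 12.5 and 12.8 CPM in WT-Nut3 and 10.4, 10.9 and 11.2 in WT-Veh, with a log2 fold change of 0.20 ± 0.12 (SE; edgeR, adjusted P = 0.998). The treated values of Hat1 were all above the vehicle values. Kat8, the acetyltransferase of histone H4 lysines in the MSL and NSL complexes, was at 18.0, 17.9 and 19.9 CPM in WT-Nut3 and 21.5, 21.1 and 19.4 in WT-Veh, which overlap, with a log2 fold change of -0.15 ± 0.10 (SE; edgeR, adjusted P = 0.998). Groups did not overlap for 2 of the 41 genes, Hat1 and Mbd4, against 7.52% of all genes.

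Between the Nutlin-3 groups (KO-Nut3 against WT-Nut3), 0 of the 41 genes passed the adjusted threshold by edgeR or DESeq2, and 1 of all genes did by edgeR (0.00443%). At an unadjusted P under 0.05 there were 2 of the 41, Kat2a and Mbd3, both lower in KO-Nut3, against 4.87% of all genes. Kat2a had a log2 fold change of -0.18 ± 0.06 (SE; edgeR, adjusted P = 0.928). Mbd3 was at 96.7, 94.1 and 94.95 CPM in KO-Nut3 and 108.0, 103.6 and 102.4 in WT-Nut3, a log2 fold change of -0.14 ± 0.05 (SE; edgeR, adjusted P = 0.928). The groups did not overlap for Mbd3, while KO-Veh, at 101.6, 99.3 and 91.9 CPM, and WT-Veh, at 107.1, 96.9 and 101.5, reached down to or near the KO-Nut3 values. Non-overlap was seen for 4 of the 41 genes, Hdac4, Kat2a, Kat6a and Mbd3, all lower in KO-Nut3, against 10.7% of all genes.

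Treated knockout against vehicle wild type (KO-Nut3 against WT-Veh) gave 0 of the 41 genes at the adjusted threshold by edgeR and DESeq2, with 0.00443% of all genes called by edgeR. At an unadjusted P under 0.05 there was 1 of the 41, Kat2a, against 9.17% of all genes, with a log2 fold change of -0.21 ± 0.06 (SE; edgeR, adjusted P = 0.296). This was the smallest P of any of the 41 genes in the 8 comparisons. Kat2b had a log2 fold change of 0.34 ± 0.16 (SE; edgeR, adjusted P = 0.577) in groups that overlapped. Non-overlap was seen for 3 of the 41 genes, Hdac4, Kat2a and Mbd3, all lower in KO-Nut3, against 15% of all genes. The comparisons of KO-Nut3 with the other groups share the KO-Nut3 libraries, so the recurrence of Kat2a and Hdac4 is not independent.

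With all 12 libraries in one fit, 0 of the 41 genes passed the adjusted threshold in any of 3 terms by edgeR or DESeq2. The interaction of genotype and Nutlin-3 called 0% of all genes after adjustment, and 0 of the 41 had an unadjusted P under 0.05, against 4.17% of all genes. Its smallest P values among the 41 were those of Hdac4, with a log2 difference of -0.15 ± 0.08 (SE; edgeR, adjusted P = 0.994), and Kat2b, with 0.30 ± 0.20 (SE; edgeR, adjusted P = 0.994). KO against WT over both treatments called 0.00443% of all genes after adjustment, and 2 of the 41, Kat2a and Mbd3, had an unadjusted P under 0.05, against 8.16% of all genes. Kat2a had a log2 fold change of -0.11 ± 0.04 and Mbd3 of -0.10 ± 0.04 (SE; edgeR, adjusted P = 0.477 and 0.520). The 95% intervals lay within 0.25 of 0 on the log2 scale for 36 of the 41 genes. Nutlin-3 against vehicle over both genotypes called 0% of all genes after adjustment, and 2 of the 41 had an unadjusted P under 0.05, against 7.29% of all genes. These were Kat2b, higher by 0.29 ± 0.11 on the log2 scale, and Kat2a, with -0.10 ± 0.04 (SE; edgeR, adjusted P = 0.507 and 0.625). With the choroid plexus score added the Nutlin-3 value of Kat2b was 0.00 and that of Kat2a was -0.07. Every score of 2.69 or more was that of a Nutlin-3 library, so this fit does not cleanly separate score and treatment.

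The partners of these enzymes were looked at through 5 further lists, and 0 of their genes passed the adjusted threshold in any of the 8 comparisons by edgeR. At an unadjusted P under 0.05 there were 2 of the 68 genes (2.94%) in KO-Nut3 against KO-Veh beside 7.6% of all genes, 3 (4.41%) in KO-Veh against WT-Veh beside 7.2%, and 3 (4.41%) in KO-Nut3 against WT-Veh beside 9.17%. There were 0 in WT-Nut3 against WT-Veh beside 3.17% and 0 in KO-Nut3 against WT-Nut3 beside 4.87%. In the fits of all 12 libraries there were 1 (1.47%) for the interaction beside 4.17%, 6 (8.82%) for KO against WT over both treatments beside 8.16%, and 2 (2.94%) for Nutlin-3 against vehicle beside 7.29%. The share was thus below that of all genes in 7 of the 8 comparisons and close to it in the other. Of those 6, 5 were among the 20 genes of deacetylase corepressor complexes, and they are named here after their values were seen. Rcor1 and Sap30, a Sin3 subunit, had log2 fold changes of 0.18 and 0.34 in KO against WT, and Mta3 and Chd3, both of NuRD, and Tbl1xr1, of the NCoR complex, had -0.12, -0.13 and -0.11 (edgeR, adjusted P between 0.511 and 0.599). The values of each of these 5 genes in KO and WT libraries overlapped. Among 20 genes of deacetylase corepressor complexes, the smallest P in KO-Veh against WT-Veh belonged to Rcor1, the CoREST scaffold that joins HDAC1 or HDAC2 to a demethylase. Rcor1 was at 44.1, 45.9 and 38.8 CPM in KO-Veh and 30.9, 34.5 and 37.3 in WT-Veh, without overlap, with a log2 fold change of 0.33 ± 0.09 (SE; edgeR, adjusted P = 0.594). It also had the smallest P of its list in KO-Nut3 against KO-Veh, with a log2 fold change of -0.17 ± 0.08 (edgeR, adjusted P = 0.682), its KO-Nut3 values being 38.7, 38.6 and 37.4 CPM. These contrasts share the KO-Veh libraries. In the same pair of comparisons the smallest P among 21 acetyltransferase complex partners belonged to Ing1 (0.15) and Msl1 (-0.10), among 8 further acetyl-lysine readers and enzymes of acetyl-CoA supply to Yeats2 (0.17) and Mllt1 (-0.14), among 15 DNA methylation partners to Uhrf2 (0.15) and Idh2 (0.26), and among the 4 genes of the MDM2 and p53 list to Mdm4 (0.08) and Trp53 (0.11), each value a log2 fold change that did not pass the test. Idh2, whose product makes the 2-oxoglutarate that TET enzymes need, was at 45.0, 35.1 and 47.4 CPM in KO-Nut3 and 34.6, 34.3 and 37.5 in KO-Veh. Its high values in KO-Nut3 were those of RH6 and RH13, the pair with most choroid plexus RNA in that group. WT-Nut3 RH9, also rich in choroid plexus RNA, was at 40.8 CPM, and WT-Veh RH15, with the lowest choroid plexus sum, at 40.6. The part of choroid plexus RNA in these values was not tested. Mdm2, the target of Nutlin-3, was at 62.6, 62.3 and 52.0 CPM in KO-Veh, 60.4, 60.3 and 62.2 in KO-Nut3, 55.2, 65.6 and 61.2 in WT-Nut3 and 52.4, 54.7 and 57.9 in WT-Veh, with a log2 fold change of 0.04 ± 0.08 (SE; edgeR, adjusted P = 0.925) in KO-Nut3 against KO-Veh. Against WT-Veh the KO-Nut3 value was 0.15 ± 0.06 (SE; edgeR, adjusted P = 0.529), the groups did not overlap, and Mdm2 was the gene of its list with an unadjusted P under 0.05.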

How the data were processed

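Poly(A) RNA of 12 hippocampi was sequenced. The authors aligned the reads to mm10 with STAR, whose version is not given in the sources used here, and deposited raw read counts per gene without strand (main) and per strand. The labels describe single reads and the methods paired ends. Strand shares lay between 50.1% and 50.4%. No library pair was identical (0). A deposited table of normalized counts and of the authors' comparisons was not used.

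Genes with more than 20 counts over the 12 libraries were tested with edgeR 4.0.16 (R 4.3.3): TMM factors, quasi-likelihood F test, two-sided, Benjamini-Hochberg over all genes, threshold 0.05. Pairs were fitted on their own 6 libraries and the interaction and additive terms on all 12. Intervals are 95%. CPM used TMM-scaled totals, divided by GENCODE M21 exon length for levels. DESeq2 1.42.0 was an alternative. P-values measure the spread between 3 mice a group. The fit was tested on simulated data, and no result here rests on that test. Named genes were Hdac1 and Ep300, those with an unadjusted P under 0.05 or the 2 smallest P, the 3 highest and 3 lowest levels, and 1 gene per partner list and comparison. The members and lists were chosen with earlier results of these data known.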

Additional observations from a re-analysis of the deposited data

How the results depend on the processing

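The count of the 41 genes called was 0 in each of the 8 comparisons and stayed 0 in 132 of 135 recomputed counts. The exceptions were all Kat2b. Testing every gene with at least 1 count (35930 genes) called 1 of the 41 in KO-Nut3 against KO-Veh and 1 in Nutlin-3 against vehicle over both genotypes, and leaving out single libraries gave 0 to 1 in KO-Nut3 against KO-Veh, the 1 without KO-Nut3 replicate 8. The cause was not tested. DESeq2, DESeq2 size factors in edgeR, filterByExpr, a fit of all 12 libraries, the animal number as a term, the strand columns summed and the choroid plexus score as a term called 0 of the 41 in every comparison, as did leaving out the 3 choroid plexus libraries, an alternative chosen after seeing the data. The animal number entered its term as a class, up to 8 or above 8, and not as a value. The choroid plexus alternatives lowered the log2 fold change of Kat2b. It went from 0.44 to 0.11 and 0.11 in KO-Nut3 against KO-Veh, and from 0.29 to 0.00 and 0.08 in Nutlin-3 against vehicle. The libraries left out were the 3 highest for Kat2b, so the second value of each pair was lowered by that choice. The scores of KO-Nut3 and KO-Veh did not overlap, so the first value there cannot tell Nutlin-3 and choroid plexus RNA apart. Kat2a and Mbd3 kept their sign under all alternatives run, as did Hdac4 in KO-Nut3 against KO-Veh (-0.19 to -0.12). The near-zero values of Hdac1 and Ep300 changed sign. The log2 fold change of Hdac1 in KO-Veh against WT-Veh was -0.00055 with the choroid plexus score and -0.0436 to 0.0571 without single libraries, and that of Ep300 was -0.0710 to 0.00882 without single libraries. In KO-Nut3 against KO-Veh, Hdac1 was -0.0772 to 0.0299 and Ep300 -0.0315 to 0.0266 without single libraries, and without the 3 choroid plexus libraries Hdac1 was -0.121 and Ep300 0.0257. With the choroid plexus score they were -0.0858 and -0.0316.

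Counts over all genes moved more. In KO-Nut3 against KO-Veh edgeR called 45, DESeq2 245, the fit of all 12 libraries 0, the animal number term 20, the choroid plexus score 0, the 9 remaining libraries 16, the lowest count filter 544, and leaving out single libraries 6 (without KO-Veh RH7 or RH10) to 266 (without KO-Nut3 RH8). In the other comparisons the lowest count filter gave 38 to 416 or, over 12 libraries, 239 to 539, DESeq2 0 to 222, and the animal number term 0 to 21. Animal numbers mark no stated batch. No paired analysis was possible because no animal number occurs in more than one group. With 3 mice a group the median distance from a log2 fold change to the end of its interval was 0.15 to 0.24 on the log2 scale for pairs and the interaction.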
